A study of Mus musculus with 6 samples.

Results

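The genes described here encode the proteasome: 48 protein-coding mouse genes named Psma, Psmb, Psmc, Psmd, Psme, Psmf or Psmg plus a number, out of 51826 Ensembl genes in the count table. They were matched by symbol in the GENCODE annotation. RNA came from V6.5, a single mouse embryonic stem cell line, in 2 states with 3 libraries each. All libraries are labelled WT (wild type). Embryonic stem cells (ESC) were kept with LIF and 2i, inhibitors of GSK3 and MEK that hold the naive pluripotent state. Epiblast-like cells (EpiLC) had been without LIF and 2i for 3 days. Both shared a serum-containing Knockout DMEM base medium, and no treatment other than the withdrawal is labelled.

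The proteasome is the protease that degrades most ubiquitin-tagged proteins. Its 20S core is a barrel of alpha rings, which gate the entry, around beta rings, which hold the cutting sites. The 19S cap binds ubiquitin, unfolds the substrate with a ring of ATPases (the base) and removes the ubiquitin chain (the lid), and core and cap together form the 26S proteasome. In immune cells, and in other cells under interferon, the catalytic beta subunits PSMB5, PSMB6 and PSMB7 are replaced in new particles by PSMB8, PSMB9 and PSMB10, forming the immunoproteasome, known for generating peptides for MHC class I. Pluripotent stem cells have been of interest to this field for their high proteasome activity.

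Library totals ran from 9710410 to 22879812 counts. Marker genes followed the state labels: 5 of 5 ESC markers, Klf4 and Esrrb among them, were called lower in EpiLC, and 4 of 4 EpiLC markers, such as Fgf5 and Otx2, were called higher. Of 3 markers shared by both states, Pou5f1 was called lower and Sall4 and L1td1 were not called. ESC replicate 3 stood apart from its group, with a chi-square statistic of 25.7 and 26.1 per degree of freedom when its counts were compared with those of the other ESC libraries. Every other pair within a state gave 2.17 to 4.11. The labels do not say whether the libraries came from separate cultures, so p-values measure only the spread between these libraries, which may be technical.

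Levels are given in CPM: each gene's counts divided by its library's total, after TMM adjustment of that total in edgeR, and put on a common scale. Log2 fold changes are EpiLC minus ESC, and calls were made with edgeR's quasi-likelihood test at a threshold of 0.05, Benjamini-Hochberg adjusted over all 14996 genes tested. Of the 48 proteasome genes, 47 had enough reads to be tested. In EpiLC 27 were called lower, 6 were called higher and 14 were not called. Over all genes tested, 64.6% were called, 32.6% lower and 32.0% higher. The median log2 fold change of the 47 was -0.27, beside 0.01 for all genes tested. Without ESC replicate 3, 30 were called lower and 7 higher, and without any other single library 24 or 25 lower and 4 or 5 higher. In RNA from whole cultures, fewer cells of a type and less RNA per cell cannot be told apart.

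**Figure D1:**
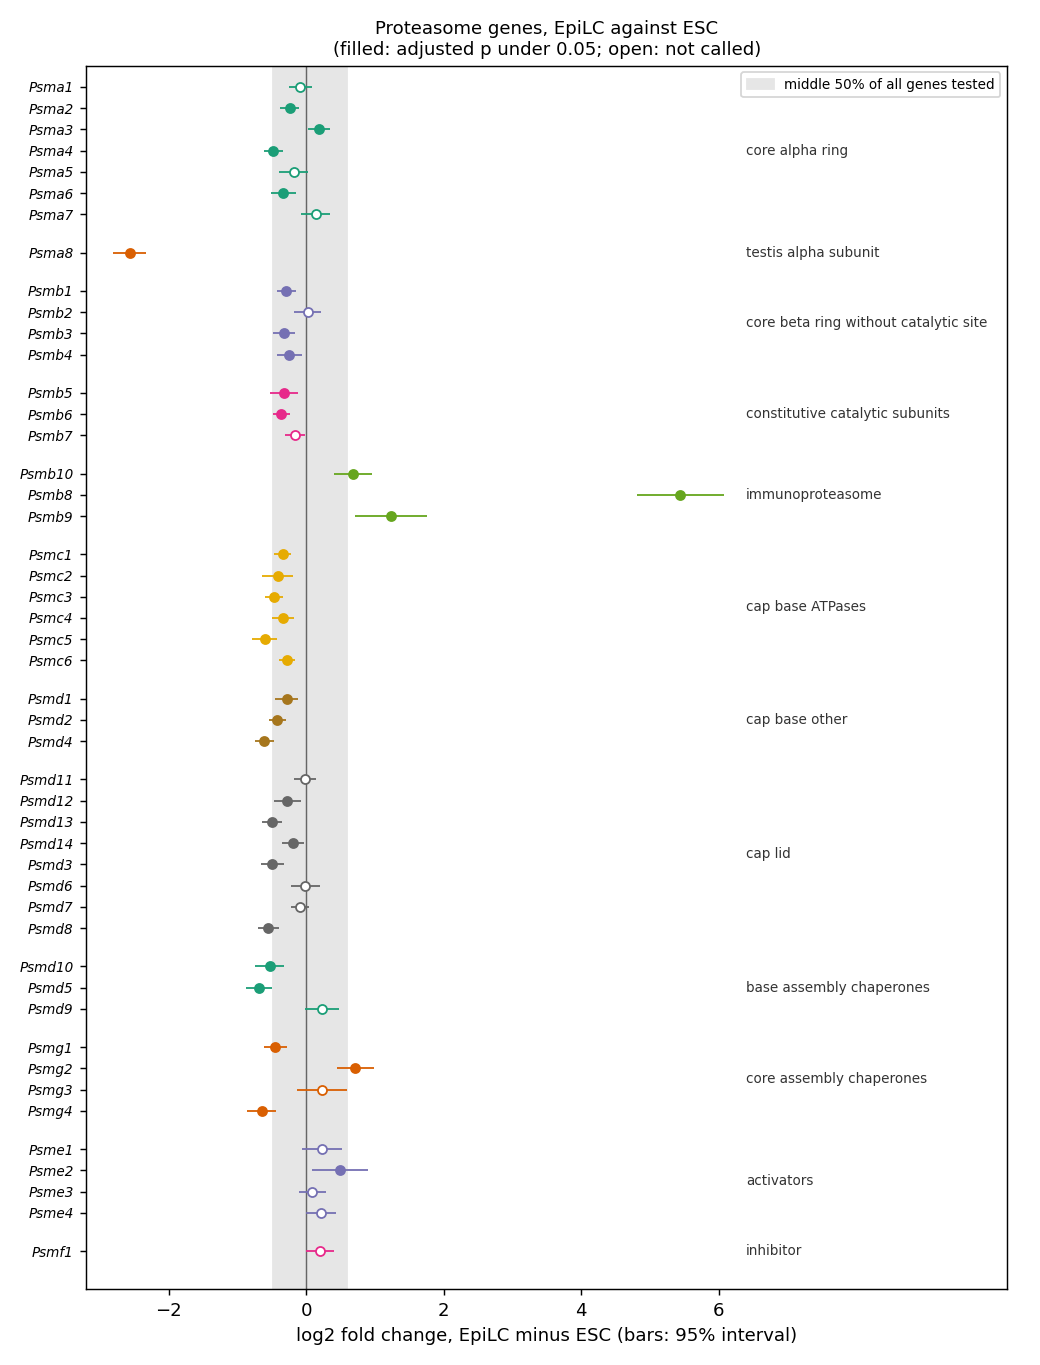
Log2 fold change (EpiLC minus ESC, x axis) of each of the 47 tested proteasome genes, grouped by role, with 95% intervals from edgeR; filled points passed an adjusted p of 0.05. Most subunits of the core and cap sit a little left of 0, within or near the grey band that holds the middle 50% of all genes, while Psma8 lies at -2.57 and Psmb8 at 5.44.

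The 31 genes of the constitutive 26S particle changed little and mostly downward. Of these, 22 fell, 1 rose and 8 were not called, beside 32.6% lower and 32.0% higher over all genes tested. The fitted value was negative for 28. Without ESC replicate 3, 25 were called lower and 1 higher, and without any other single library 19 or 20 were called lower and 0 higher. Their log2 fold changes ran from -0.61 to 0.18, with a median of -0.29, and the middle 50% lay between -0.42 and -0.17. For all genes tested the middle 50% lay between -0.48 and 0.59. The 95% interval stayed within 2-fold in either direction for 31 of 31, beside 54.5% of all genes tested. The 3 EpiLC libraries lay below the 3 ESC libraries in 24 of the 31 and above them in 1, beside 35.3% and 34.9% of all genes tested.

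The summed level of these 31 genes was 7580, 7598 and 7023 CPM in ESC replicates 1 to 3 and 5805, 6072 and 6134 CPM in EpiLC replicates 1 to 3. The sum was thus lower in each EpiLC library than in any ESC library, by 1.23-fold on the means. ESC replicate 3 was the lowest of the ESC libraries in sum and for 24 of the 31 genes. EpiLC replicate 1 was the lowest of its group for 26.

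**Figure D2:**
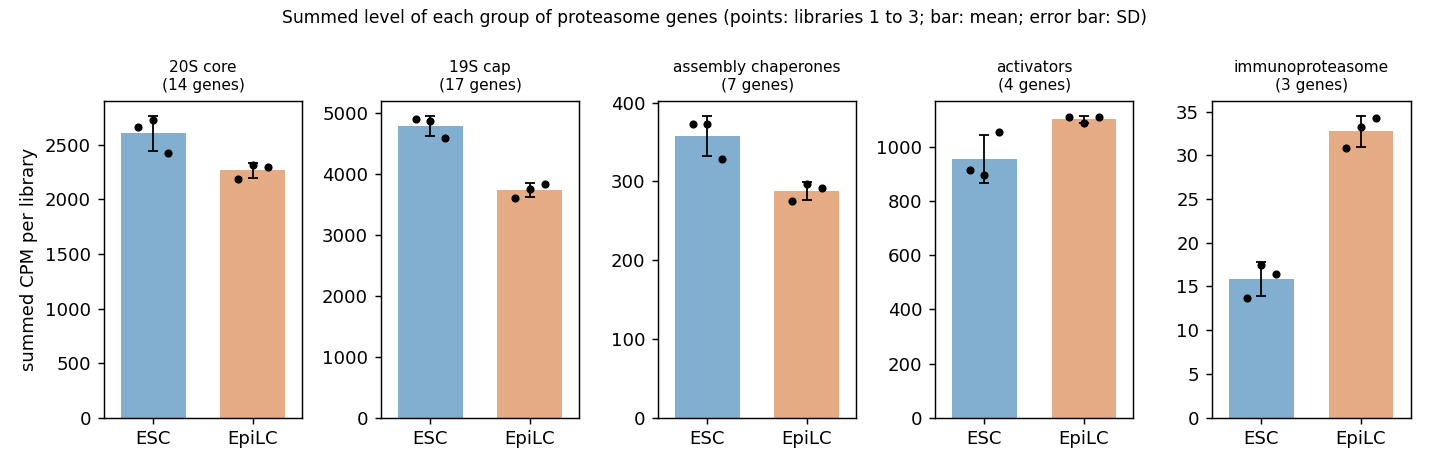
Summed CPM per library (y axis, from 0 in each panel, with its own scale) for 5 groups of proteasome genes in ESC and EpiLC; points are libraries, bars the mean and error bars the SD. Core, cap and assembly chaperones lie lower in EpiLC, and the 3 immunoproteasome genes lie higher, at 30.8 to 34.3 against 13.7 to 17.5 CPM.

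In the alpha ring, 3 of 7 genes fell, 1 rose and 3 were not called, beside 32.6% lower and 32.0% higher over all genes tested. Psma4 stood at 181, 186 and 173 CPM in ESC and at 125, 131 and 131 CPM in EpiLC. All EpiLC values lay below all ESC values, and the fall was 1.396-fold (log2 fold change -0.48 with SE 0.06, edgeR adjusted p = 0.000176). Psma6 (-0.33) and Psma2 (-0.24) also fell. Psma3 was the single alpha gene called higher, with 43.3, 45.2 and 43.8 CPM in ESC and 49.3, 52.3 and 48.8 CPM in EpiLC. Its log2 fold change of 0.18 (adjusted p = 0.0458 by edgeR) did not pass with DESeq2 (adjusted p = 0.204) or in 7 other alternatives. Psma1 (233 and 220 CPM on average in ESC and EpiLC), Psma5 (46.4 and 40.9 CPM) and Psma7 (258 and 283 CPM) were not called, and the first 2 passed as lower without ESC replicate 3.

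In the beta ring, 3 of the 4 genes without a catalytic site fell, beside 32.6% of all genes tested. Psmb3 stood at 90.5, 91.2 and 81.4 CPM in ESC and 68.7, 71.7 and 70.8 CPM in EpiLC, without overlap (log2 fold change -0.32, SE 0.07). Psmb1 (-0.29) and Psmb4 (-0.25) fell too, while Psmb2 averaged 98.7 and 100 CPM and was not called. The call for Psmb4 was lost without ESC replicate 1 or 2 or EpiLC replicate 1 or 2, with edgeR's adjusted p between 0.0534 and 0.0935.

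The counts given to each of the 3 constitutive catalytic subunits were lower in each EpiLC library than in any ESC library, and 2 of the genes were called. Over all genes tested, 35.3% lay lower in this way and 32.6% were called lower. Psmb6, the caspase-like beta1 subunit (ENSMUSG00000018286, chromosome 11, 70525367 to 70527858; positions are on GRCm38), stood at 318, 326 and 310 CPM in ESC and 244, 253 and 246 CPM in EpiLC. It fell 1.28-fold (log2 fold change -0.36 with an SE of 0.05, and an edgeR adjusted p of 0.000533). Psmb5, the chymotrypsin-like beta5 subunit (ENSMUSG00000022193, chromosome 14, 54614119 to 54618022), stood at 38.8, 40.6 and 35.0 CPM in ESC and 29.3, 32.1 and 30.2 CPM in EpiLC. That was a 1.25-fold fall (log2 fold change -0.32 with SE 0.09, edgeR adjusted p = 0.0112). Psmb7, the trypsin-like beta2 subunit (ENSMUSG00000026750, chromosome 2, 38588036 to 38644087), stood at 253, 263 and 246 CPM in ESC and 213, 237 and 231 CPM in EpiLC. It missed the threshold (log2 fold change -0.16, adjusted p = 0.0534 by edgeR), and passed without ESC replicate 3 (adjusted p = 0.00255).

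Counts of Psmb5 are uncertain. Of the 50-base stretches in its longest transcript, 57.1% also occur in annotated transcripts of other genes, and the processed pseudogene Gm3375 was itself given 22.3, 20.7 and 17.9 CPM in ESC and 17.5, 21.4 and 20.9 CPM in EpiLC. How reads that match both were assigned is not given in the sources used here. The sum of both rows averaged 58.4 ± 4.79 CPM in ESC and 50.4 ± 3.39 CPM in EpiLC (SD, n = 3), and for this sum the states overlapped, with 53.5 CPM in EpiLC replicate 2 and 52.9 CPM in ESC replicate 3. The same share was 55.4% for Psma5, 31.5% for Psma4, 26.1% for Psmd2 and 22.0% for Psma3, and it was 0 for 25 of the 48 genes.

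Most cap genes fell. Of the 17, 14 fell by edgeR, 0 rose and 3 were not called, beside 32.6% lower and 32.0% higher over all genes tested. With TMM scaling and all 6 libraries, all 17 had a negative fitted value, so that 0 were higher at an unadjusted p under 0.05, whereas Psmd6 and Psmd11 turned slightly positive with upper quartile scaling (0.04 and 0.03) and library totals (0.06 and 0.05). Over the 11 alternatives, DESeq2 among them, 12 to 14 were called lower and 0 higher. Each of the 6 ATPases that unfold the substrate fell, without overlap between the states. EpiLC lay below ESC without overlap in 35.3% of all genes tested. Psmc5 fell most among them, from 255, 253 and 216 CPM in ESC to 152, 162 and 162 CPM in EpiLC (1.52-fold, log2 fold change -0.60, SE 0.08; edgeR adjusted p = 0.000233). The other 5 ranged from Psmc6 (-0.28) to Psmc3 (-0.47).

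The 3 further base genes fell as well, beside 32.6% of all genes tested. Psmd4 encodes a ubiquitin receptor of the cap, and went from 293, 282 and 284 CPM in ESC to 183, 183 and 198 CPM in EpiLC. This was the largest fall among the 31 constitutive genes, at 1.53-fold (log2 fold change -0.61 with SE 0.06, edgeR adjusted p = 4.58e-05). The scaffold subunit genes Psmd2 (567 and 424 CPM on average) and Psmd1 (458 and 377 CPM) fell by log2 fold changes of -0.42 and -0.28.

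In the lid, 5 of 8 genes fell, beside 32.6% of all genes tested. Psmd8 stood at 284, 278 and 319 CPM in ESC and 199, 198 and 205 CPM in EpiLC, with ESC replicate 3 the highest here (log2 fold change -0.55, SE 0.07). Psmd13 (-0.50), Psmd3 (-0.49), Psmd12 (-0.27) and Psmd14 (-0.19) also fell. Psmd14 encodes the deubiquitinase of the lid; its call was lost with library totals (adjusted p = 0.101) and in 7 other alternatives, among them every single library left out except ESC replicate 3, and that of Psmd12 without ESC replicate 1 or 2 or any single EpiLC library (adjusted p = 0.0572 to 0.0816). Psmd6 (180 and 179 CPM on average) and Psmd11 (113 and 112 CPM) were not called, and their 95% intervals of -0.22 to 0.20 and -0.18 to 0.15 lay well inside 2-fold. Psmd7 (240 and 226 CPM) was not called either.

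Although the proteins are present in fixed ratios in the particle, the transcript levels per length were not equal. In ESC the 14 constitutive core genes ran from 11.3 (Psma3) to 172 CPM per kilobase of union exon length (Psmb4), with a median of 75.1. The 17 cap genes ran from 17.7 (Psmd11) to 173 (Psmc5), with a median of 93.3. In EpiLC the medians were 60.4 and 70.2 CPM per kilobase, with the same lowest and highest genes. The order depends on the length used: with the longest transcript as length, Psmb6 rather than Psmb4 was the highest core gene in ESC, at 329 CPM per kilobase. Within each ring the highest were Psma6 (168 CPM per kilobase in ESC), Psmb4, Psmc5, Psmd2 (140) and Psmd7 (106). Neighbours in this order often lay within each other's spread, such as Psmb4 (172 ± 15.6), Psmb6 (170 ± 4.13) and Psma6 (168 ± 16.7; SD, n = 3).

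**Figure D3:**
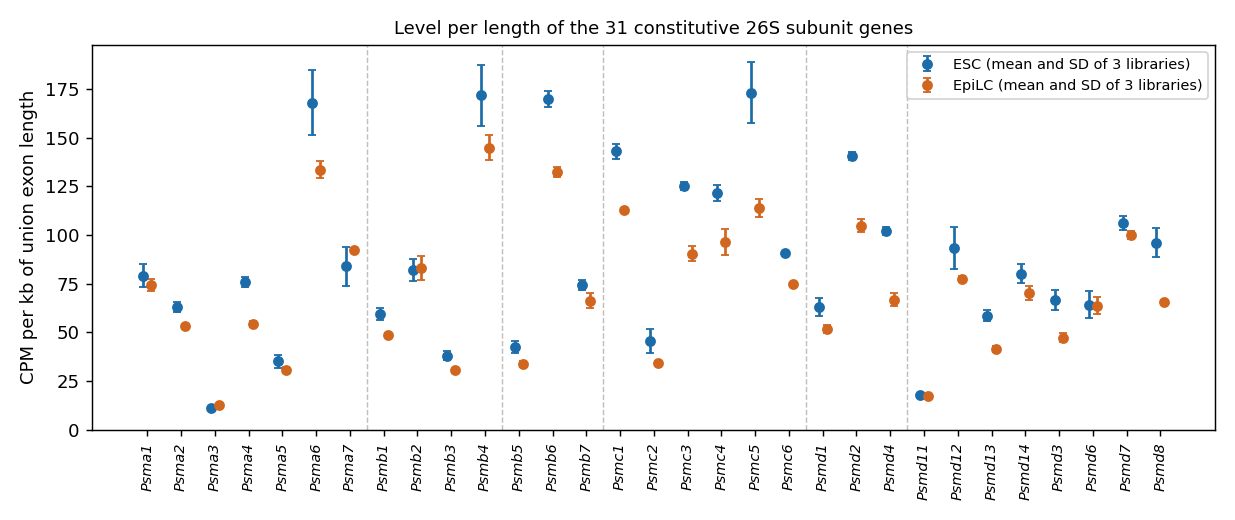
Mean level per length (CPM per kilobase of union exon length, y axis from 0) with SD over 3 libraries for the 31 constitutive 26S genes in ESC and EpiLC; dashed lines separate the roles in the order alpha, beta, catalytic beta, ATPases, other base and lid. Levels differ between subunits by far more than between states.

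The immunoproteasome moved the other way: all 3 of its genes rose, in each of the 11 alternatives run as well, though all 3 remained below their constitutive counterparts. Psmb8, encoding beta5i (ENSMUSG00000024338, chromosome 17, 34197721 to 34201454), had 2, 3 and 2 counts in the ESC libraries and 68, 66 and 67 in the EpiLC libraries. That corresponds to 0.10, 0.14 and 0.17 CPM against 6.83, 5.65 and 5.98 CPM. The ESC counts are each at or below the limit of 3 that a count of 0 allows. The ratio of the summed counts per scaled total was 46.3 (exact 95% interval 22.1 to 117, counting error only), and the fitted log2 fold change was 5.44 (SE 0.28; edgeR adjusted p = 9.17e-07).

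Psmb9, encoding beta1i (ENSMUSG00000096727, chromosome 17, 34181987 to 34187764), stood at 1.45, 2.30 and 2.53 CPM in ESC and 4.32, 5.13 and 5.0 CPM in EpiLC. The states did not overlap, and the rise was 2.35-fold (log2 fold change 1.23 with SE 0.23, edgeR adjusted p = 0.00167). Psmb10, encoding beta2i (ENSMUSG00000031897, chromosome 8, 105935735 to 105938444), was the most abundant of the 3. It stood at 12.1, 15.1 and 13.8 CPM in ESC and 19.7, 22.4 and 23.3 CPM in EpiLC, a 1.6-fold rise without overlap (log2 fold change 0.68 with SE 0.12, edgeR adjusted p = 0.00134). With at least a 2-fold difference, 2 of the 3 were called higher, beside 17.0% of all genes tested. At any size of difference, 32.0% of all genes tested were called higher.

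**Figure D4:**
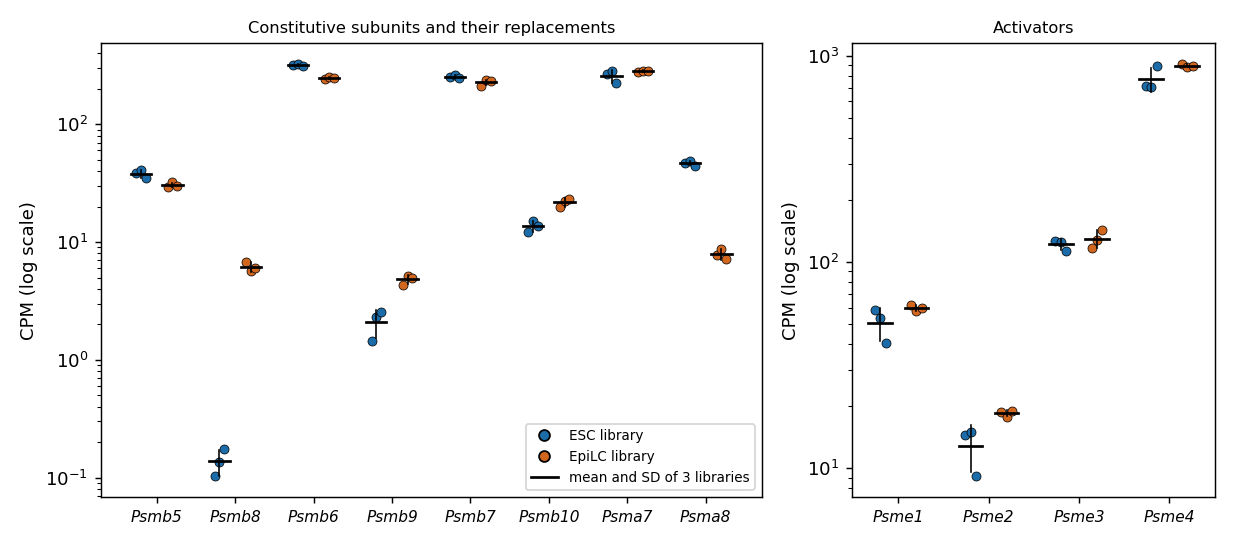
CPM per library (log scale) of the constitutive catalytic subunits and alpha subunit Psma7, each beside its replacement, and of the 4 activator genes; points are libraries, horizontal bars the mean and vertical bars the SD of 3. Psmb8 is near 0.1 CPM in ESC and near 6 CPM in EpiLC, and Psma8 moves in the opposite direction.

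Set against its counterpart within each library, each immunoproteasome gene stood higher in EpiLC. Counted per union exon length, Psmb8 made up 0.071%, 0.089% and 0.132% of Psmb8 plus Psmb5 in ESC and 5.83%, 4.47% and 5.01% in EpiLC. Psmb9 made up 0.233%, 0.360% and 0.415% of Psmb9 plus Psmb6 in ESC and 0.897%, 1.03% and 1.03% in EpiLC. Psmb10 made up 8.79%, 10.3% and 10.1% of Psmb10 plus Psmb7 in ESC and 15.6%, 15.9% and 16.8% in EpiLC. The mean log2 ratio was higher in EpiLC by 5.55, 1.59 and 0.84 in that order. In each pair the EpiLC libraries lay above all ESC libraries, and the exact two-sided permutation test gave p = 0.1 for each of the 3 ratios, the smallest p that 3 against 3 libraries allow (adjusted over the 3, also 0.1). With Gm3375 added to Psmb5 the first difference was 5.44. The size of each share depends on the length used: with the longest transcript, Psmb8 averaged 8.70% of its pair in EpiLC rather than 5.10%.

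**Figure D5:**
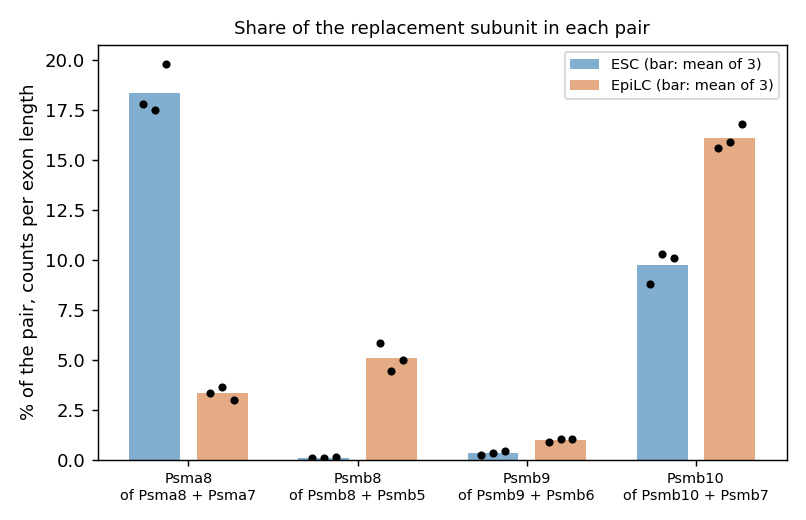
Share of the replacement subunit in the sum of replacement and constitutive gene (percent of counts per union exon length, y axis from 0) in ESC and EpiLC; points are libraries and bars the mean of 3. The immunoproteasome shares are higher in every EpiLC library, and the Psma8 share falls from between 17.5% and 19.8% to between 2.99% and 3.63%.

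The start regions of 2 of these pairs are shown because their members went in opposite directions. The windows run from 250 bases before to 50 bases after the RefSeq start (RefSeq, GRCm38.p6), 5′ to 3′, and 40 of the 48 genes had one, all but Psma8, Psmb1, Psmb2, Psmb7, Psmc3, Psmd3, Psmd7 and Psmg2. Capitals mark matches on either strand to 4 motifs: TGACNNNGC, the core of the antioxidant response element bound by NRF1 and NRF2; CCAAT, the NF-Y box; GAAA and GAAA with any 2 bases between, the core of the interferon-stimulated response element; and TTCNNNGAA, the core of the interferon-gamma activated site. Each window below holds a single match, so that no matches overlap.
Psmb5 (chr14:54617946-54618245, strand minus): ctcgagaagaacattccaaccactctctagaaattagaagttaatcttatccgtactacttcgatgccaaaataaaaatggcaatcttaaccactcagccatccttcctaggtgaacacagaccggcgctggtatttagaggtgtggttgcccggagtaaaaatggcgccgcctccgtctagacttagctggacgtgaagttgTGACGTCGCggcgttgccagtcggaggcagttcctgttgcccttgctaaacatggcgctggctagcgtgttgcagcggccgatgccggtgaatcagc
Psmb8 (chr17:34197945-34198244, strand plus): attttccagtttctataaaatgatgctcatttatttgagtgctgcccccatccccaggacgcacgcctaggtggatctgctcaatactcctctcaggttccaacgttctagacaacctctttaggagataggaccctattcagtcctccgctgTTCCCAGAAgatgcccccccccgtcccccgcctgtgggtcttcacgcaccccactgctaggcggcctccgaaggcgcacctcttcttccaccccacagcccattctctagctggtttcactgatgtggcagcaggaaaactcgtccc
Psmb6 (chr11:70525107-70525406, strand plus): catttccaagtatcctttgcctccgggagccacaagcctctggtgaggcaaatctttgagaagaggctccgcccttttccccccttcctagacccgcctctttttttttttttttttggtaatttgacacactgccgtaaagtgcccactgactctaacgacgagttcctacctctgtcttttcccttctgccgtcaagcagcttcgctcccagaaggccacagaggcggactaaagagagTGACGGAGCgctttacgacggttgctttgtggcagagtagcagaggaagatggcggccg
Psmb9 (chr17:34187281-34187580, strand minus): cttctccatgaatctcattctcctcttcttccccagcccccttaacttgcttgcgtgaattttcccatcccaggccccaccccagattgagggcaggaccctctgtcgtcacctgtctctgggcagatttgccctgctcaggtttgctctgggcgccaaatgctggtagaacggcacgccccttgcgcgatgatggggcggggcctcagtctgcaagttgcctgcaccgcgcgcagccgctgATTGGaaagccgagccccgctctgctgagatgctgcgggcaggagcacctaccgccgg

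The windows of Psmb5 and Psmb6 each held 1 match to TGACNNNGC, that of Psmb8 held 1 to TTCNNNGAA, and that of Psmb9 held 1 to CCAAT on the opposite strand. The window of Psmb10 held none of the 4. Across the 27 windows of constitutive 26S genes, 14.8% held TGACNNNGC, beside 12.4% of all 32851 windows of that length and 14.3% of those of tested genes. CCAAT was in 37.0% of them and in 37.4% of all windows. The GAAA pair was in 2 of the 27 (7.41%), against 3.44% of all windows and 2.67% of those of tested genes. Over all 43 windows of proteasome genes it was in 5 (11.6%), those of Psme1, Psmb3, Psmd4, Psmd9 and Psmg4. It was in 0 of the 3 immunoproteasome windows. TTCNNNGAA was in 1 of the 27 (3.70%) and in 3 of the 43 (6.98%), against 8.30% and 6.6%. These counts are small. A match to these letters describes the window and shows no binding. The windows of Psmb8 and Psmb9 lie wholly inside the GENCODE spans given for these genes, so sequence upstream of those spans was not searched. Those of Psmb5 and Psmb6 extend upstream of theirs, so the pairs were not searched over like regions.

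Psmb8 and Psmb9 lie 9956 bases apart in the MHC region of chromosome 17, with Tap1 between them and Tap2 after Psmb8. Tap1 and Tap2 encode the transporter that carries proteasome-made peptides to MHC class I. Tap1 rose from 4.46, 5.68 and 9.32 CPM in ESC to 26.4, 21.6 and 22.7 CPM in EpiLC (log2 fold change 1.91), and Tap2 rose by 2.02. Tap1 is named here because its start overlaps that of Psmb9 on the other strand by 212 bases, so that without a stated strand setting some reads of both genes cannot be told apart. Psmb8 overlaps Gm20496 on the other strand by 498 bases, and that gene had 1 count over the 6 libraries. Among the constitutive subunits, Psmb7 overlaps Nek6 by 405 bases, Psmd13 overlaps Sirt3 by 342 bases and Psmc3 overlaps Slc39a13 by 215 bases. These overlaps are also on the other strand, and the counts of these genes are uncertain for the same reason.

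Of 11 genes of MHC class I presentation, 6 rose, 0 fell and 5 were not called (32.0% and 32.6% over all genes tested), with a median log2 fold change of 0.69. DESeq2 called 0 of them lower, as did an unadjusted p under 0.05, and the 3 with a negative value had edgeR adjusted p-values of 0.583 to 0.93. Nlrc5, a transactivator of MHC class I genes, rose from 0.64 to 6.59 CPM on average (3.51), and the peptide-trimming enzyme gene Erap1 rose by 3.00. Of 20 genes of the interferon pathway 15 were tested, of which 6 rose and 7 fell (median 0.12). Gbp2, an interferon-induced GTPase, rose from 0.16, 0.14 and 0 CPM in ESC to 19.3, 15.1 and 19.4 CPM in EpiLC, and Gbp3, a relative, rose from 2 counts over the ESC libraries to 51 over the EpiLC libraries (ratio of counts per scaled total 41.1, exact 95% interval 10.8 to 348, counting error only). Oas1a, an antiviral enzyme gene, fell by 5.0 on the log2 scale. Among genes named after their values were seen, Irf1, a transcription factor of the immunoproteasome genes, rose (log2 fold change 1.30), while Stat2 (-1.60) and Irf9 (-1.24) fell. Isg15, Ifit1, Ifit3 and Mx1, induced by type I interferon, had too few reads to be tested.

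Leukocytes hold much immunoproteasome. Of 9 leukocyte markers, Cd53 and Tyrobp had 0 counts in each library and Ptprc, which encodes CD45, was at 0 in ESC and at 0, 0.68 and 0.18 CPM in EpiLC. Of the 4 that were tested, 1 was called higher and 2 lower, beside 32.0% and 32.6% of all genes tested. The summed level ran from 57.4 to 77.9 CPM in ESC and from 15.9 to 19.4 CPM in EpiLC. Most of the ESC sum came from the 2 called lower, Laptm5 (48.0 and 0.84 CPM on average in ESC and EpiLC) and Cd68 (16.5 and 3.78 CPM). Coro1a, the 1 called higher, went from 3.94 to 11.3 CPM on average (log2 fold change 1.45). Most of the called fibroblast markers rose. Of 11, 8 were tested, 5 of them called higher and 1 lower, beside 32.0% and 32.6% of all genes tested. The sum ran from 14.5 to 18.99 CPM in ESC and from 275 to 323 CPM in EpiLC, most of it Tagln. Acta2 (0.03 and 6.05 CPM on average in ESC and EpiLC), Col1a2 (0.14 and 3.83 CPM) and Col1a1 (0.58 and 1.65 CPM) were also called higher. Pdgfrb fell from 7.61 to 1.82 CPM on average (log2 fold change -2.02), and Pdgfra and Thy1 were not called. For Thy1 the EpiLC libraries all lay above the ESC libraries (3.10 and 4.86 CPM on average). Dcn was at 0 in ESC and at 4.02 to 4.79 CPM in EpiLC, whereas Lum and Postn had at most 1 count in any library. The part of such cells in the immunoproteasome rise was not tested.

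The activators open the core without ubiquitin. PSME1 and PSME2 form PA28 alpha-beta, which is induced by interferon together with the immunoproteasome; PSME3 is PA28 gamma of the nucleus, and PSME4 is PA200, a larger activator of another fold. All 4 genes had a positive fitted value, and 1 was called higher, beside 32.0% of all genes tested. Psme2 stood at 14.5, 15.1 and 9.15 CPM in ESC and 18.7, 17.8 and 19.02 CPM in EpiLC, without overlap, with ESC replicate 3 well below the other 2 (log2 fold change 0.50 with SE 0.18, edgeR adjusted p = 0.0368). That call was lost without any single EpiLC library (adjusted p = 0.0761 to 0.107) and without the filter on low counts (0.0994). Moreover, 59.3% of its 50-base stretches occur in other genes, among them Psme2b, which had 4 to 10 counts per library. Psme1, which lies 5911 bases from Psme2 on chromosome 14, stood at 58.3, 53.6 and 40.4 CPM in ESC and 62.2, 57.7 and 59.9 CPM in EpiLC and was not called (log2 fold change 0.23, adjusted p = 0.142 by edgeR).

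Psme4 had the highest count level of all 48 genes, at 716, 703 and 893 CPM in ESC and 912, 885 and 890 CPM in EpiLC. The overlap came from ESC replicate 3: with all libraries the log2 fold change was 0.22 (adjusted p = 0.0758 by edgeR), and without that library it was 0.32 (adjusted p = 4.46e-06). Its transcript is long, and per kilobase of union exon it stood at 91.9 in ESC and 107 in EpiLC, within the range of the cap genes. Psme3 stood at 127, 125 and 113 CPM in ESC and 117, 128 and 143 CPM in EpiLC and was not called (log2 fold change 0.09, interval -0.11 to 0.29). Psmf1, which encodes PI31, named as an inhibitor of the core, stood at 29.8, 28.9 and 26.4 CPM in ESC and 30.2, 33.0 and 34.7 CPM in EpiLC. It was not called (log2 fold change 0.20, adjusted p = 0.0841 by edgeR) but passed with upper quartile scaling (0.0374) and library totals (0.0219).

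Psma8 encodes a variant of the alpha4 subunit PSMA7 that is known from the testis, where it forms the spermatoproteasome. In these cells it stood at 47.1, 48.8 and 44.7 CPM in ESC and 7.83, 8.72 and 7.14 CPM in EpiLC. It fell 5.93-fold, the largest fall of the 48 genes, with the groups far apart (log2 fold change -2.57 with SE 0.10, edgeR adjusted p = 4.51e-07; ENSMUSG00000036743, chromosome 18, 14706151 to 14762301). Per union exon length it made up 17.8%, 17.5% and 19.8% of Psma8 plus Psma7 in ESC and 3.34%, 3.63% and 2.99% in EpiLC. Of its 50-base stretches 0% occur in annotated transcripts of other genes. At least a 2-fold fall was called for 1 proteasome gene, Psma8, beside 12.4% of all genes tested.

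Germ cell markers did not move with Psma8. Of 5, 2 were tested and both were called higher in EpiLC, beside 32.0% of all genes tested. Ddx4 averaged 12.97 and 53.8 CPM and Sycp3 9.54 and 22.5 CPM. The summed level of the 5 ran from 18.1 to 27.4 CPM in ESC and from 75.9 to 78.6 CPM in EpiLC. Prm1, a gene of late spermatids, had 0 counts in each library. Psmb11, the thymus-specific counterpart of Psmb5 (chromosome 14, 54621433 to 54629556, 3410 bases from Psmb5), was the single gene not tested. It had 1 count in ESC replicate 1, 1 in EpiLC replicate 2 and 0 elsewhere, and 3 counts, the limit that a count of 0 allows, correspond to 0.131 to 0.309 CPM. Of 4 markers of thymic epithelium 3 were tested, with 0 called higher and 2 lower, beside 32.0% and 32.6% of all genes tested. The sum of the 4 ran from 25.7 to 35.9 CPM in ESC and from 8.13 to 8.57 CPM in EpiLC, and Foxn1 stood at no more than 0.17 CPM.

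The chaperones that assemble the particle split. PSMG1 to PSMG4 build the alpha ring and guide the beta subunits onto it. Psmg2 rose 1.64-fold, from 38.6, 39.9 and 29.1 CPM in ESC to 57.8, 60.9 and 58.8 CPM in EpiLC (log2 fold change 0.71 with SE 0.12, edgeR adjusted p = 0.000893). Psmg1, its partner in a heterodimer, fell 1.36-fold, from 93.5, 95.3 and 83.5 CPM to 64.8, 67.6 and 67.5 CPM (log2 fold change -0.45 with SE 0.07, edgeR adjusted p = 0.000802). Neither pair of groups overlapped.

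PSMG3 and PSMG4 form the other dimer. Psmg4 fell 1.57-fold, from 28.2, 26.6 and 25.96 CPM to 16.4, 17.5 and 17.6 CPM (log2 fold change -0.65). Psmg3 stood at 7.26, 6.71 and 5.75 CPM in ESC and 7.03, 7.36 and 8.93 CPM in EpiLC and was not called. Of the 3 chaperones of the cap base, Psmd5 fell 1.61-fold, from 157, 156 and 138 CPM to 87.0, 101 and 92.1 CPM (log2 fold change -0.69, SE 0.08). Psmd10, which encodes gankyrin, fell 1.45-fold, from 24.8, 25.6 and 24.2 CPM to 18.3, 16.2 and 17.3 CPM. Psmd9 stood at 23.9, 21.8 and 21.7 CPM in ESC and 23.2, 26.4 and 29.4 CPM in EpiLC and was not called (log2 fold change 0.23, adjusted p = 0.0949 by edgeR), but passed as higher with library totals (0.0341) and without EpiLC replicate 1 (0.0433).

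Of 17 listed partners and regulators of the proteasome 16 were matched and tested, of which 5 rose, 5 fell and 6 were not called (median log2 fold change -0.14). These shares are close to the 32.0% higher and 32.6% lower over all genes tested. Ecpas, a protein that binds core and cap, rose 2.61-fold, from 66.2, 78.2 and 104 CPM in ESC to 207, 220 and 220 CPM in EpiLC. Midn, which brings proteins to the proteasome without ubiquitin, rose by 0.55. Nfe2l2, which encodes NRF2, fell from 112, 105 and 92.2 CPM to 67.7, 69.1 and 70.4 CPM (log2 fold change -0.58). Nfe2l1, named after its values were seen, encodes NRF1, the factor that induces proteasome genes when the proteasome is inhibited, and fell by a log2 fold change of -0.38. Pomp, the maturation factor of the core, also named after its values were seen, fell (-0.23). Ddi2 (0.37) and Ngly1 (0.44) of the same list, named in the same way, were called higher.

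Of 14 genes of ubiquitin supply, shuttling and segregation, 3 rose, 5 fell and 6 were not called (median 0.05), again beside 32.0% higher and 32.6% lower over all genes tested. Ubqln2, a shuttle that carries ubiquitinated proteins to the cap, rose 2.77-fold, from 22.0, 24.1 and 29.3 CPM in ESC to 70.5, 64.3 and 72.7 CPM in EpiLC. The polyubiquitin gene Ubb fell from 217, 236 and 192 CPM to 137, 136 and 141 CPM (log2 fold change -0.64), and Rad23b, another shuttle, fell by a log2 fold change of -0.46.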

How the data were processed

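RNA of 6 libraries was depleted of ribosomal RNA and made into stranded libraries, per the labels' protocols. The authors deposited raw read counts per Ensembl gene. Cutadapt, STAR, featureCounts, DESeq2 and the build mm10 appear in the submitters' processing notes. What annotation release, strand setting and multi-mapping rule were used is not given in the sources used here, so overlapping genes and near-identical copies are uncertain.

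Symbols, positions and exon lengths came from GENCODE M21 (GRCm38, the assembly of mm10), which matched 51633 of 51826 genes. The 92 spike-in rows held 0 counts. Counts were tested with edgeR 4.0.16 in R 4.3.3 (quasi-likelihood, legacy option off, TMM scaling, filterByExpr with 10 counts per library and 15 in total), with the state as the only term. Ratios used counts plus 0.5 per length. Scripts were tested on simulated data. Totals per library ran from 9710410 to 22879812 counts, and the exact intervals of count ratios cover counting error only, while those of edgeR include the spread between libraries. Of the listed genes, Paaf1 had no match in the table.

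Named in full were the catalytic, immunoproteasome, activator, inhibitor, chaperone and tissue subunits, and in other roles the called genes with the largest changes. Of each further list of pathway genes, up to 3 called genes with the largest change and at least 1 CPM were named. Cell type markers did not follow this limit. Members and lists were chosen with earlier results of these data known. Alternatives were upper quartile scaling, library totals, DESeq2 1.42.0, no filter on low counts, the replicate number as a block, and each library left out. For the ratios they were a pseudocount of 1, the longest transcript as length, each library left out and the paired differences.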

Additional observations from a re-analysis of the deposited data

How the results depend on the processing

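Over 11 alternative fits (edgeR and DESeq2), the number of proteasome genes called lower ranged from 24 to 30 around 27, and the number called higher from 4 to 9 around 6. Of the 27 called lower, 24 kept their call and direction in every fit, and of the 6 called higher, 4 did (Psmb8, Psmb9, Psmb10 and Psmg2). The calls that did not hold throughout were those of Psma3, Psmb4, Psmd12, Psmd14 and Psme2. No called gene reversed. With a single library left out, the counts ranged from 24 to 30 lower and from 4 to 7 higher, the highest of both without ESC replicate 3. Deviations of the same-numbered libraries of the 2 states from their group means correlated at -0.12, 0.01 and -0.18 over 14996 genes. Those of differently numbered libraries correlated at -0.19 to 0.19. Deviations from a mean of 3 libraries depend on each other, and ESC replicate 3 stood apart. These correlations therefore cannot show whether the numbers pair the libraries. With the replicate block, 26 genes were called lower and 5 higher, Psma3 and Psmd14 losing their call, and the paired differences of the 3 log2 ratios were 5.55 ± 0.56, 1.59 ± 0.32 and 0.84 ± 0.11 (SD, n = 3). The ratios of Psmb8 to Psmb5, Psmb9 to Psmb6 and Psmb10 to Psmb7 ranged with a library left out from 5.36 to 5.81, 1.35 to 1.77 and 0.76 to 0.89, and were 5.32, 1.58 and 0.84 with a pseudocount of 1. Adding Gm3375 to Psmb5, an alternative chosen after seeing the data, gave 5.44. Relative to TMM, library totals moved the median of all genes tested from 0.01 to 0.08, and the median of the proteasome genes was then -0.20. Depth limits Psmb8 in ESC and Psmb11 in both states.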
